A study of Mus musculus with 6 samples.

Results

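The genes described here are 33 that serve the unfolded protein response and the integrated stress response in mouse, chosen by gene symbol from a table of 25239 genes. All 33 had a row, and 32 passed the filter on low counts, which 14002 genes of the table passed. They comprise 14 chaperones and folding enzymes of the endoplasmic reticulum (ER), 7 genes of ER-associated degradation, 6 sensors and transcription factors, and 6 targets of the transcription factors ATF4 and CHOP. RNA came from yolk sacs at embryonic day 9.5 and was sequenced in 6 libraries. The 3 wild-type (WT) libraries came from CD1 embryos with no treatment. The 3 libraries labelled DKO came, by their labels, from embryos of mixed background with a Cdx1 null genotype (Cdx1-/-), a floxed Cdx2 (Cdx2 fl/fl) and a tamoxifen-activated Cre under an actin promoter (Actin::CreERT). By the same labels tamoxifen was given at embryonic day 5.5. Genotype, background and tamoxifen differ together and cannot be told apart, and nothing in the labels tells single yolk sacs from pools or names litters. The p-values therefore measure only the spread between these samples. Values of single libraries are given in the order 1, 2 and 3, marked WT or DKO label.

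The yolk sac endoderm is a secretory epithelium that makes serum proteins for the embryo before the liver does, and secreted proteins fold in the ER. When unfolded proteins accumulate there, 3 sensors of the ER membrane respond. ATF6 is cleaved to a transcription factor, IRE1 (Ern1) removes a short stretch from the Xbp1 mRNA, and PERK (Eif2ak3) phosphorylates the initiation factor eIF2alpha. ATF6 and spliced XBP1 raise chaperone and degradation genes. Phosphorylated eIF2alpha slows most translation but favours that of ATF4, which raises amino acid synthesis genes, CHOP (Ddit3) and feedback inhibitors. Other kinases that sense amino acid lack, heme lack or viral RNA reach ATF4 by the same phosphorylation, which is why that arm is called integrated.

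Promoter sequences from RefSeq (GRCm38.p6, 250 bases before to 50 after the start) matched 29 of the 33 genes; Manf, Hyou1, Derl1 and Atf6 had none. Searched on both strands, the ER stress response element ERSE (CCAAT, any 9 bases, CCACG), which ATF6 binds with NF-Y, was found in 9 of these 29 promoters (31%) and in 0.137% of the 27025 genes with a promoter. The 9 were those of Hspa5, Hsp90b1, Calr, Canx, Pdia6, Dnajc3, Creld2, Syvn1 and Derl3. The related ERSE-II (ATTGG, any 1 base, CCACG) was found in Dnajb11 and Herpud1, against 0.0444% of all genes. The core TGACGTG, part of the element bound by XBP1, was found in Hspa5 alone among these genes and in 2.22% of all genes. The C/EBP-ATF element TGATGNAA, to which ATF4 dimers bind, was found in Herpud1, Trib3, Chac1 and Asns, against 4.51% of all genes. No matches of different elements overlapped in these promoters, and those of Dnajb11 and Trib3 lay after the start. A match says only that these letters lie in the window.

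The stretches below are shown because they carry these elements, in capitals, upstream of genes whose values differ in direction or in spread further on. Not shown are those of Hsp90b1, Calr, Dnajc3 and Syvn1, which also carry an ERSE upstream. Of these, Hsp90b1 lay lower under the DKO label, and Calr, Dnajc3 and Syvn1 overlapped between groups. A link between element and value was not tested. Each stretch shown reads 5′ to 3′ on the strand of its gene, and an element on the other strand appears as its reverse complement. Hspa5 lies at chr2:34771918-34772058 (plus strand), Canx at chr11:50325785-50325833 (minus), Pdia6 at chr12:17266476-17266524 (plus), Creld2 at chr15:88819505-88819553 (plus), Derl3 at chr10:75893227-75893275 (plus), Herpud1 at chr8:94386302-94386402 (plus), Chac1 at chr2:119351034-119351071 (plus) and Asns at chr6:7693210-7693247 (minus).
Hspa5: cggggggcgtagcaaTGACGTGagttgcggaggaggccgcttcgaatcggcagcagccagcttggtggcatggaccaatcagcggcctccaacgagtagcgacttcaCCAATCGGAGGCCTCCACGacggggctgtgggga
Canx: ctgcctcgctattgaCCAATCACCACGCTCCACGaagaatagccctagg
Pdia6: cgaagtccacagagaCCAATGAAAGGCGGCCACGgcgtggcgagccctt
Creld2: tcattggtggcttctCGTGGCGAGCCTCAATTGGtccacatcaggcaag
Derl3: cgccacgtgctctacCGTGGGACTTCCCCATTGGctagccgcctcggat
Herpud1: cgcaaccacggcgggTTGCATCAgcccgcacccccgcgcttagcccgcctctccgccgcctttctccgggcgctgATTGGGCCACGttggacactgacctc
Chac1: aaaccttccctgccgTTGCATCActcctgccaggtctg
Asns: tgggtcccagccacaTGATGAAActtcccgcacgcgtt

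The ERSE of Hspa5 spans bases -65 to -47 from the start, and that of Pdia6 bases -98 to -80. In Asns the C/EBP-ATF element spans bases -23 to -16, and in Chac1 bases -193 to -186.

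Library totals ran from 20040601 to 56732836 counts, and levels are given as CPM, the usual depth-scaled count, after TMM scaling, a correction for library composition. The tissue was checked on its markers: all 23 visceral endoderm markers and secreted products were detected, led in WT by the carrier Afp and the apolipoprotein Apob. Of the targeted genes, Cdx2 was no lower under the DKO label, at 16.6, 18.9 and 20.4 CPM (WT) against 23.0, 24.1 and 25.7 CPM (DKO label) (log2 fold change 0.38, SE 0.12, adjusted p 0.449 by edgeR). A count over the whole gene cannot show the loss of single exons, so this does not tell whether the floxed part was deleted. Cdx1 was near the limit of detection in every library, at 0 to 0.397 CPM in WT (0 to 8 counts) and 0.253 to 0.406 CPM under the DKO label (10 to 14 counts), with overlapping groups. The counts thus do not check the labels, on which the directions given rest. The libraries labelled DKO stood apart from each other, with correlations of log2 CPM across genes, which are not independent, of 0.925 to 0.969, against 0.989 to 0.990 between WT libraries. Library 3 labelled DKO lay over 2-fold above every WT library in 6.87% of genes and over 2-fold below in 4.37%, library 1 in 1.21% and 2.04% and library 2 in 1.71% and 1.08%. Among the 32 tested stress response genes the only such case was Asns, below WT in library 3.

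None of the 32 tested stress response genes passed the threshold of an adjusted p of 0.05 by edgeR's quasi-likelihood test, which called 0.0357% of all genes. At an unadjusted p under 0.05 there were 3, Psat1 higher and Hyou1 and Creld2 lower in the libraries labelled DKO, where 9.09% of all genes were under it (5.55% higher, 3.54% lower). DESeq2 called none of them (1.92% of genes with an adjusted p), and limma-voom with library quality weights called 6, in a fit that called 19% of all genes. The fold changes were small. The 16 positive and 16 negative log2 fold changes had a median of 0.00, against 0.01 over all genes tested, of which 51.9% were positive, and ran from -0.33 for Hyou1 to 0.51 for Derl3. For 30 of the 32 the 95% interval stayed within a 2-fold change in either direction, as it did for 70.3% of all genes tested. The exceptions were Derl3, the least abundant gene tested here, and Asns, whose libraries labelled DKO differed most from each other.

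**Figure D1:**
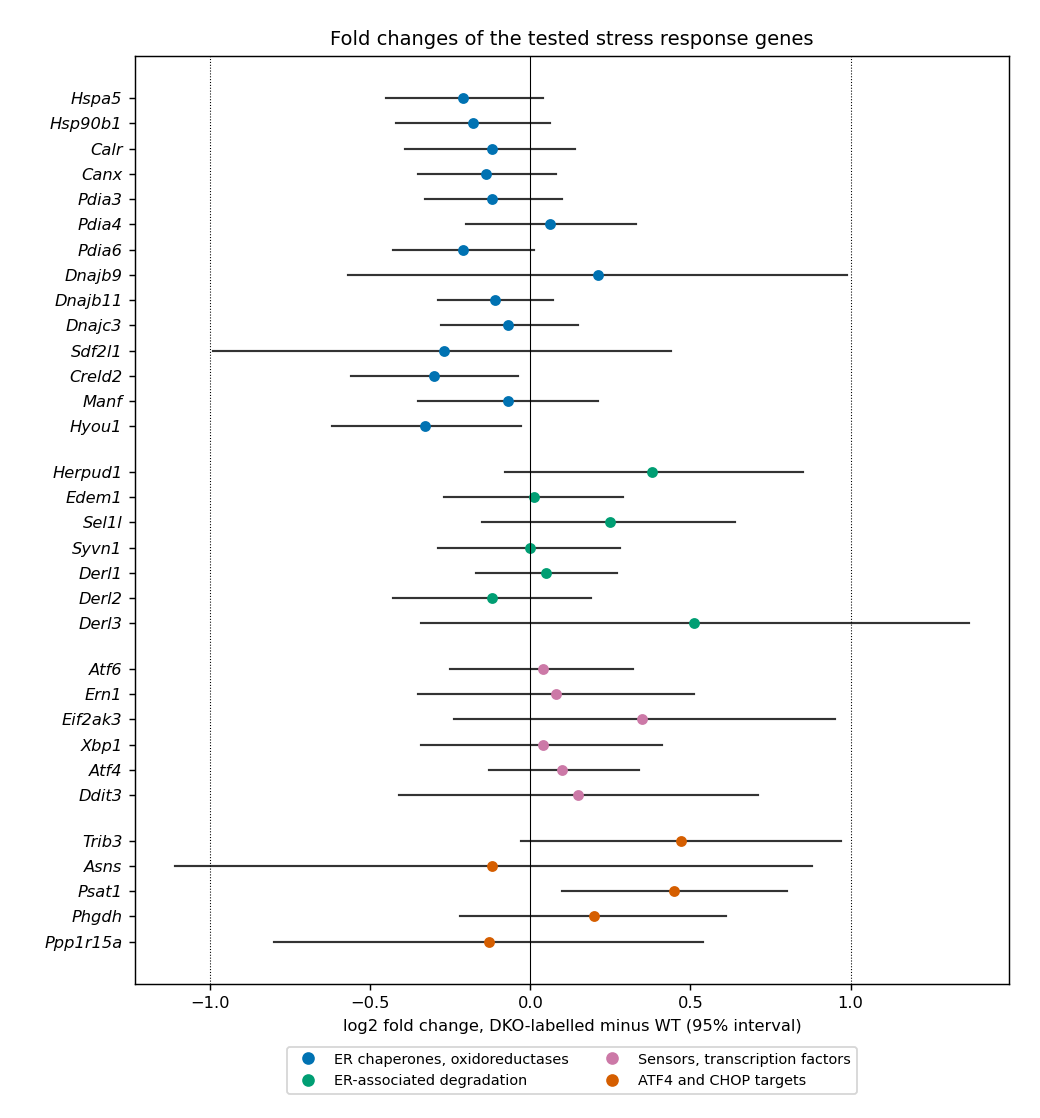
Log2 fold change (libraries labelled DKO minus WT, n = 3 each) of the 32 tested genes, one per line by role, with the 95% interval of edgeR as a bar. Dotted lines mark 2-fold; 30 intervals lie between them, and those of Creld2, Hyou1 and Psat1 do not reach 0 although no gene passed the adjusted threshold.

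Of the 14 ER chaperones, 12 had a log2 fold change below 0, where 51.9% of all genes tested had one above 0. In 8 of the 14, every library labelled DKO lay below every WT library, where 7.61% of all genes tested did so. The amounts were small and did not pass the adjusted threshold, and genes read in the same 6 libraries are not independent cases. Pdia4 and Dnajb9 had values above 0. Hspa5 (BiP), the central HSP70 chaperone of the ER and the partner that keeps the sensors silent, had 1507, 1391 and 1507 CPM (WT) against 1337, 1302 and 1171 CPM (DKO label). All 3 libraries labelled DKO lay below all WT libraries, at 0.911, 0.887 and 0.797 of the WT mean. The log2 fold change was -0.21 (SE 0.10, 95% interval -0.45 to 0.04, adjusted p 0.598 by edgeR). Hsp90b1 (GRP94), the ER HSP90, had 1743, 1730 and 1702 CPM (WT) against 1535, 1633 and 1412 CPM (DKO label), again without overlap (log2 fold change -0.18, SE 0.10). Its exons overlap those of other genes, as do those of 11 of the 33 genes, and without the strand setting such reads cannot be assigned with certainty.

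Hyou1 and Creld2 had the lowest unadjusted p among the chaperones. Hyou1 (GRP170), which exchanges the nucleotide of BiP, stood at 481, 473 and 505 CPM (WT) against 444, 385 and 333 CPM (DKO label). The groups did not overlap, library 3 being lowest at 0.686 of the WT mean, and the log2 fold change was -0.33 (SE 0.12, interval -0.62 to -0.03, adjusted p 0.518 by edgeR). Creld2, an ER protein induced by ER stress, had 96.3, 92.7 and 111 CPM (WT) against 86.6, 81.7 and 74.5 CPM (DKO label), also without overlap (log2 fold change -0.30, SE 0.11, interval -0.56 to -0.04, adjusted p 0.497). In limma-voom with quality weights these were the chaperones called, Hyou1 at -0.32 (adjusted p 0.0159) and Creld2 at -0.26 (adjusted p 0.0492).

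Of the lectin chaperones, Canx (calnexin), bound to the ER membrane, had 1106, 1070 and 1021 CPM (WT) against 949, 1009 and 949 CPM (DKO label), without overlap. Its soluble relative Calr (calreticulin) had 1782, 1657 and 1791 CPM (WT) against 1625, 1739 and 1441 CPM (DKO label), so that library 2 labelled DKO lay among the WT libraries. Pdia3 (ERp57), the disulfide isomerase that works with both lectins, had 833, 817 and 825 CPM (WT) against 761, 800 and 719 CPM (DKO label). Pdia6, another disulfide isomerase, had 651, 685 and 666 CPM against 562, 619 and 550 CPM, and neither isomerase gene overlapped between groups. Pdia4 (ERp72) did not share this order, with 383, 348 and 369 CPM (WT) against 333, 410 and 406 CPM (DKO label) (log2 fold change 0.06, SE 0.11).

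The J-domain proteins deliver clients to BiP. Dnajb11 had 218, 220 and 225 CPM (WT) against 200, 206 and 208 CPM (DKO label), a small gap between groups (log2 fold change -0.11, SE 0.08), with coefficients of variation of 1.61% (WT) and 2.05% (DKO label). Dnajc3 (p58IPK), also known as an inhibitor of PERK, overlapped between groups (log2 fold change -0.07, SE 0.09). Dnajb9 (ERdj4), a repressor of IRE1, had 30.0, 20.1 and 20.3 CPM (WT) against 15.5, 30.4 and 35.4 CPM (DKO label), so that library 1 labelled DKO was the lowest and library 3 the highest of all, with a coefficient of variation of 38.3% under the DKO label. Sdf2l1, a partner of Dnajb11, had 35.7, 34.4 and 45.1 CPM (WT) against 42.1, 34.8 and 18.6 CPM (DKO label), with library 3 labelled DKO at 0.484 of the WT mean and libraries 1 and 2 within the WT range. Manf, a secreted ER stress protein, also overlapped (log2 fold change -0.07, SE 0.12).

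Taking the 14 chaperones together, 12 had a negative log2 fold change (median -0.13), 2 had an unadjusted p under 0.05 (9.09% of all genes) and 0 passed edgeR's adjusted threshold. DESeq2 called 0 of the 14 and limma-voom 2, both lower, where limma-voom called 19% of all genes. In 8 of them the libraries labelled DKO lay wholly below WT, the share of such genes among all tested being 7.61%. The same 8 were found with RLE, upper quartile or no scaling factor, an alternative added after the values were seen. Over the 14 chaperones the median difference from the WT mean was -0.14, -0.09 and -0.25 on the log2 scale in libraries 1, 2 and 3 labelled DKO, where the median of all genes was 0.01, 0.00 and 0.01. Library 1 lay below every WT library in 12 of 14 chaperones (33.7% of all genes), library 2 in 9 (33.9%) and library 3 in 12 (40.5%).

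**Figure D2:**
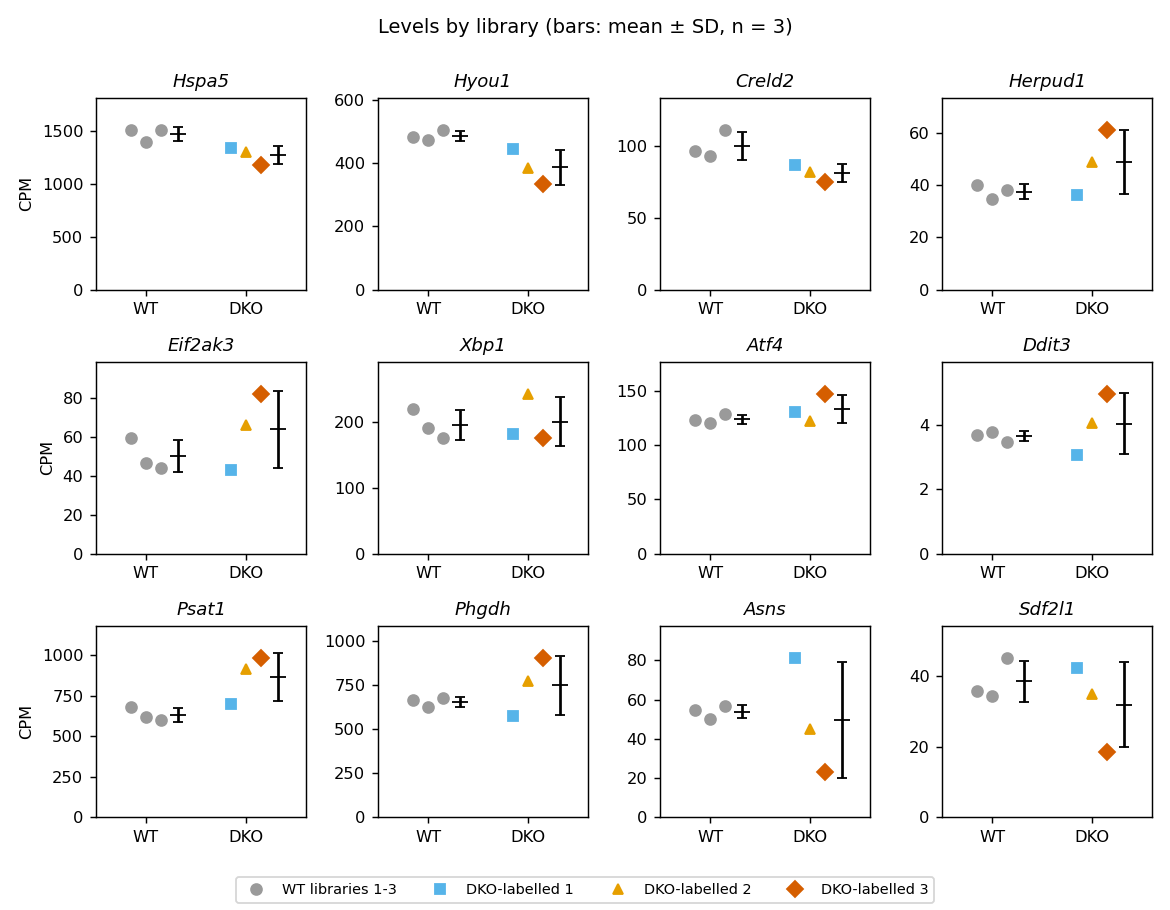
CPM (linear axes from 0) of 12 stress response genes in the 3 WT libraries (grey circles) and in libraries 1, 2 and 3 labelled DKO (blue squares, yellow triangles, orange diamonds), with mean ± SD as bars. Hspa5, Hyou1 and Creld2 lie below WT and Psat1 above in all 3 libraries labelled DKO, while Asns runs from 81.4 to 22.9 CPM among them.

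Levels can be set between genes per length of exon. In WT the mean level was 798 CPM per kilobase for Calr, 611 for Hsp90b1 and 391 for Hspa5, followed by Phgdh at 345, Pdia6 at 307 and Pdia3 at 298. Hspa5 ranked 58, Hsp90b1 41 and Calr 36 by mean CPM among the 14002 genes tested. At the other end Ddit3 stood at 4.10 CPM per kilobase, Trib3 at 3.21, Ern1 at 1.62, Derl3 at 1.09 and Chac1 at 0.155. The exon lengths come from GENCODE M21 and may differ from those the authors counted over.

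The genes of ER-associated degradation, which carry misfolded proteins back to the cytosol for the proteasome, showed no common direction. Of 7 tested, 5 had a positive log2 fold change (median 0.05), 0 had an unadjusted p under 0.05 and 0 passed edgeR or DESeq2. Limma-voom called 2 higher, Herpud1 and Sel1l, in a fit that called 19% of all genes. Herpud1, an ER membrane adaptor strongly induced by ER stress, had 40.0, 34.6 and 38.2 CPM (WT) against 36.5, 49.1 and 61.3 CPM (DKO label). Library 1 labelled DKO lay within the WT range, and libraries 2 and 3 above it at 1.30 and 1.63 times the WT mean (log2 fold change 0.38, SE 0.19, adjusted p 0.605 by edgeR). Sel1l, the adaptor of the HRD1 ubiquitin ligase, had 214, 197 and 182 CPM (WT) against 181, 255 and 268 CPM (DKO label), the same order of libraries. Without library 1 labelled DKO, Herpud1 stood at 0.55 (adjusted p 0.0548) and Sel1l at 0.40 (adjusted p 0.055), and without library 3 at 0.18 and 0.14.

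The ligase itself, Syvn1 (HRD1), had 90.6, 75.2 and 80.8 CPM (WT) against 72.5, 88.3 and 85.2 CPM (DKO label). Edem1, a mannosidase-like protein that marks glycoproteins for disposal, had 134, 119 and 110 CPM against 111, 134 and 120 CPM. These genes overlapped between groups, with log2 fold changes of 0.00 (SE 0.12) for Syvn1 and 0.01 (SE 0.12) for Edem1. Of the derlins, membrane proteins of the exit channel, Derl1 stood at 0.05 (SE 0.09) and Derl2 at -0.12 (SE 0.13). Derl3 was scarce, with 35, 27 and 34 counts (WT) against 69, 83 and 69 counts (DKO label). As levels these were 1.30, 1.31 and 1.69 CPM and 2.80, 2.14 and 1.25 CPM, so that library 3, the deepest, lay just below WT and libraries 1 and 2 above it.

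The sensors overlapped between groups. Atf6 had 45.4, 50.2 and 42.8 CPM (WT) against 53.0, 43.1 and 46.0 CPM (DKO label) (log2 fold change 0.04, SE 0.12, interval -0.25 to 0.32). Ern1, which encodes IRE1, had 13, 13.9 and 12.7 CPM (WT) against 11.6, 12.9 and 17.3 CPM (DKO label), with library 1 labelled DKO below WT and library 3 above (log2 fold change 0.08, SE 0.18). Eif2ak3, which encodes PERK, had 59.5, 46.7 and 43.9 CPM (WT) against 43.2, 66.1 and 82.2 CPM (DKO label). Library 1 labelled DKO was the lowest of all and library 3 the highest, at 1.64 times the WT mean (log2 fold change 0.35, SE 0.25, interval -0.24 to 0.95). Without library 1 Eif2ak3 stood at 0.56 (adjusted p 0.0772 by edgeR) and without library 3 at 0.12.

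Xbp1 had 219, 190 and 175 CPM (WT) against 181, 242 and 175 CPM (DKO label), with library 2 labelled DKO above WT (log2 fold change 0.04, SE 0.16). Its activity is set by the removal of 26 bases from the mRNA, 8 codons and 2 bases, which shifts the reading frame. In GENCODE M21 these bases, found as CCGCAG followed by 20 bases and CTGCAG, are bases 482 to 507 of a coding sequence of 801 bases, within the coding exon stretch chr11:5524265-5524324 (GRCm38, plus strand). They are shown in capitals with 17 bases on each side.
Xbp1: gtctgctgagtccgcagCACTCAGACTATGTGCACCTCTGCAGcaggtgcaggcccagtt

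Counts per gene sum reads of both forms, so the table gives the level of Xbp1 mRNA and not the share that was spliced. The same holds for ATF4, whose amount is set mainly by translation, and for ATF6, which is activated by cleavage.

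Atf4 had 123, 120 and 128 CPM (WT) against 130, 122 and 147 CPM (DKO label) (log2 fold change 0.10, SE 0.10, interval -0.13 to 0.34). Library 2 labelled DKO lay within the WT range and libraries 1 and 3 above it. Ddit3, which encodes the pro-apoptotic factor CHOP, was low, with 3.68, 3.79 and 3.48 CPM (WT) against 3.08, 4.07 and 4.98 CPM (DKO label), from 70 to 275 counts (log2 fold change 0.15, SE 0.23). Library 1 labelled DKO lay below WT and the others above. The exons of Ddit3 overlap those of a tRNA synthetase gene and a predicted gene, so its small counts are uncertain. Of these 6 sensors and factors, 6 had a positive log2 fold change (median 0.09), none had an unadjusted p under 0.05, and edgeR, DESeq2 and limma-voom each called 0.

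Psat1, an enzyme of serine synthesis and an ATF4 target, was the stress response gene with the lowest p. It had 680, 617 and 600 CPM (WT) against 701, 912 and 983 CPM (DKO label), all above WT, where 7.94% of all genes lay wholly above. The log2 fold change was 0.45 (SE 0.15, interval 0.10 to 0.80) with an unadjusted p of 0.0194 and an adjusted p of 0.465 by edgeR. DESeq2 gave an adjusted p of 0.188 and limma-voom 0.00868. Without library 1 labelled DKO the value was 0.58 with an adjusted p of 0.0389, in a fit that called 3.02% of genes as higher and 1.4% as lower, and without library 3 it was 0.35 (0.523).

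Phgdh, which encodes the enzyme before PSAT1 in the same pathway, had 663, 622 and 676 CPM (WT) against 571, 770 and 903 CPM (DKO label). Library 1 labelled DKO lay below WT and libraries 2 and 3 above, at 1.18 and 1.38 times the WT mean (log2 fold change 0.20, SE 0.17). Psph, whose enzyme ends the pathway, had 159, 147 and 162 CPM (WT) against 143, 183 and 184 CPM (DKO label), the same order against WT as Phgdh (log2 fold change 0.12, SE 0.12).

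Asns, which encodes asparagine synthetase and is a classical ATF4 target, ran the other way among the libraries labelled DKO. Its levels were 54.7, 50.1 and 56.9 CPM (WT) against 81.4, 45.1 and 22.9 CPM (DKO label), that is 1.51, 0.837 and 0.425 times the WT mean. The log2 fold change of -0.12 (SE 0.42) averages over these opposite values, and it was 0.22 without library 3 and -0.67 without library 1. Ppp1r15a (GADD34), the phosphatase subunit that ends eIF2alpha phosphorylation, had 31.7, 25.2 and 38.0 CPM (WT) against 38.0, 30.3 and 18.8 CPM (DKO label). Library 3 labelled DKO lay below the WT range and library 2 within it, while library 1 stood at its upper edge.

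Trib3, a pseudokinase induced by ATF4 and CHOP, had 7.65, 6.12 and 5.76 CPM (WT) against 7.38, 10.8 and 8.91 CPM (DKO label) (log2 fold change 0.47, SE 0.21, adjusted p 0.569 by edgeR). Library 1 labelled DKO lay within the WT range and libraries 2 and 3 above it, and limma-voom gave an adjusted p of 0.021. Chac1, which degrades glutathione and follows ATF4, was barely detected, having 6, 6 and 5 counts (WT) against 9, 12 and 15 counts (DKO label). Scaled for depth these were 0.223, 0.292 and 0.248 CPM (WT) against 0.365, 0.309 and 0.272 CPM (DKO label), with library 3 labelled DKO within the WT range. It was removed by the filter, and 3 counts correspond to 0.0543 to 0.149 CPM in these libraries. Of the 5 ATF4 and CHOP targets tested, 3 were positive (median 0.20). Psat1 alone had an unadjusted p under 0.05, where 9.09% of all genes did, and edgeR and DESeq2 called 0. Limma-voom called Psat1 and Trib3, in a fit that called 19% of all genes.

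**Figure D3:**
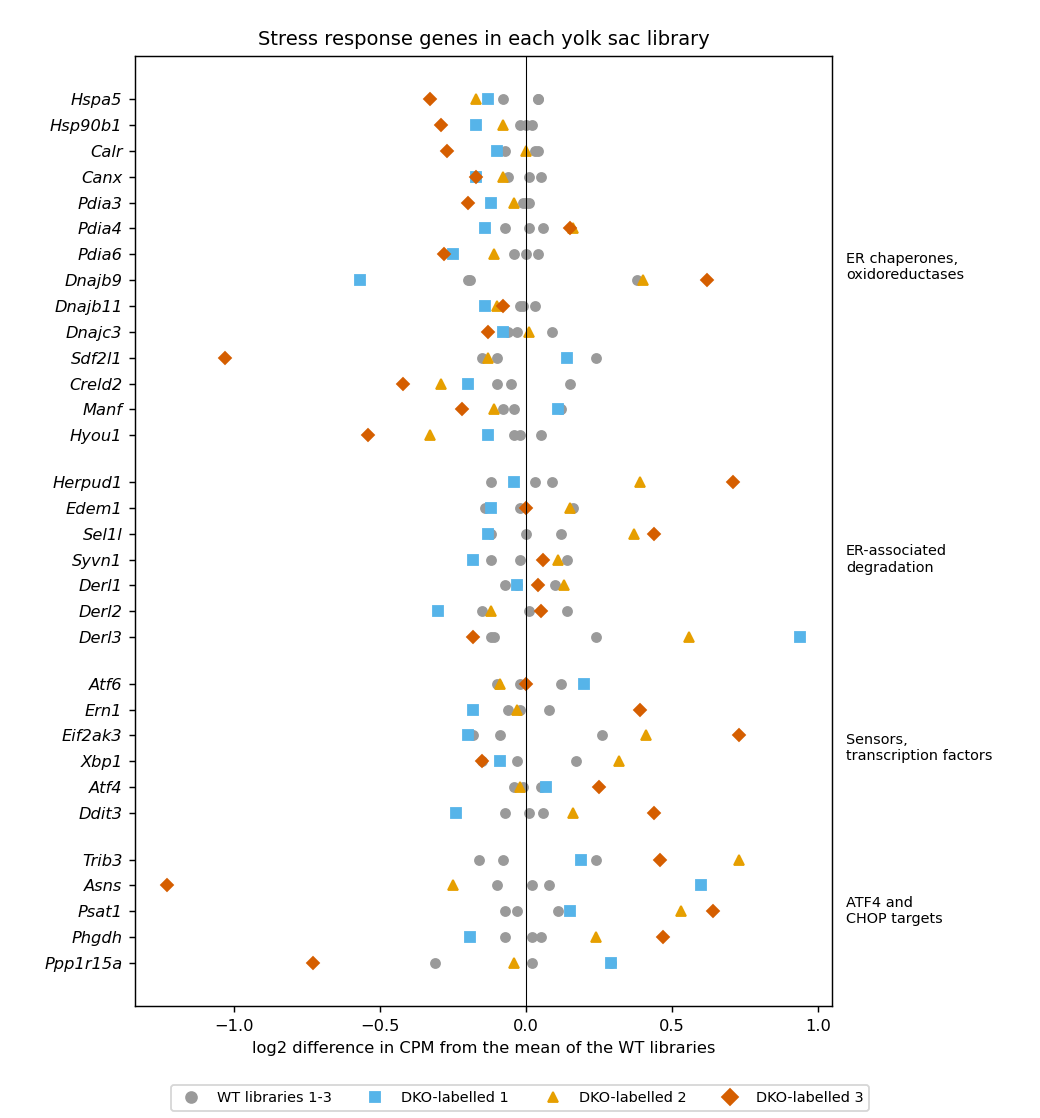
Log2 difference in CPM from the mean of the WT libraries for the 32 tested genes, by role. WT libraries (grey) cluster near 0; most chaperones lie just left of 0 in each library labelled DKO, while Sdf2l1 and Asns in library 3 lie at -1.03 and -1.23 and Eif2ak3 and Herpud1 at 0.73 and 0.71.

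The spread among the libraries labelled DKO differed by role. The median coefficient of variation of the chaperones was 4.44% in WT and 7.38% under the DKO label, against 8.33% and 19.2% over all genes tested. It was 11.9% for degradation genes, 20% for sensors and factors and 22.3% for ATF4 and CHOP targets in the libraries labelled DKO. These values are descriptions of 3 libraries per group. Lower counts add counting error to the scarcer genes, and its part in these values was not tested. The 22.3% is the value of Phgdh, which had 14088 to 49906 counts in the libraries labelled DKO. The cause of the spread was not tested.

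Markers of the cell types of the tissue differed among the same libraries. The summed level of the 23 visceral endoderm markers and products was 44137, 41236 and 38252 CPM (WT) against 26999, 47851 and 70380 CPM (DKO label). Afp alone held 9861, 6787 and 7866 CPM (WT) against 2223, 11547 and 31235 CPM (DKO label). In library 3 labelled DKO, 17 of the 23 lay above every WT library and 6 below, among the latter the endocytic adaptor gene Dab2 at 952 CPM against 1852 to 2016 in WT and the receptor gene Cubn at 4309 CPM against 4720 to 6726. The sum therefore does not stand for each marker. The summed chaperones did not run in that order, at 9317, 8959 and 9243 CPM (WT) against 8338, 8678 and 7710 CPM (DKO label). Set against the endoderm list, they came to 21.1%, 21.7% and 24.2% in WT and to 30.9%, 18.1% and 11% in the libraries labelled DKO, so that library 1 lay above and libraries 2 and 3 below WT.

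**Figure D4:**
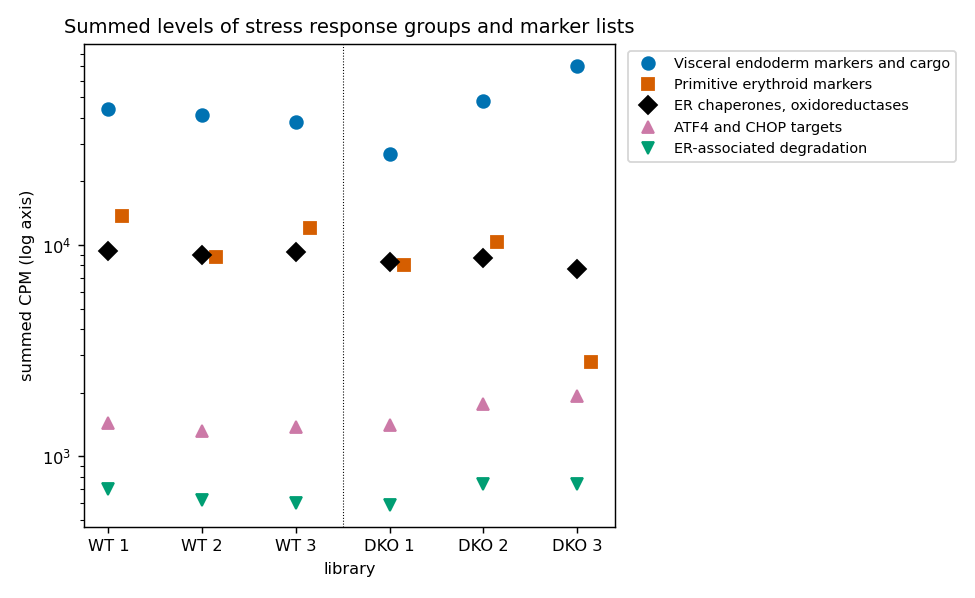
Summed CPM (log axis) of 3 groups of stress response genes and 2 marker lists in each library, WT left and DKO-labelled right of the dotted line. The chaperones stay between 7710 and 9317 CPM, while the visceral endoderm list runs from 26999 to 70380 CPM and the primitive erythroid list from 2784 to 13660 CPM.

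The 10 primitive erythroid markers summed to 13660, 8787 and 11972 CPM (WT) against 8034, 10348 and 2784 CPM (DKO label), with library 3 lowest. The 9 trophoblast markers summed to 30.3 to 63.8 CPM in WT and to 111, 53.4 and 385 CPM under the DKO label, while the spongiotrophoblast marker Tpbpa stayed at 0 to 0.122 CPM in every library. The 6 macrophage markers summed to 67.5 to 87.3 CPM in WT and to 69.3, 113 and 153 CPM under the DKO label. Mrc1 held most of the WT sums, at 59.1 to 75.0 CPM, and stood at 61.9, 91.4 and 65.9 CPM under the DKO label. In library 3 labelled DKO, Csf1r had 67.1 CPM against 2.28 to 4.90 CPM in WT. Cd68, Ptprc, Tyrobp and Fcer1g also lay above WT there, at 2.46 to 11.2 CPM. The 10 mesoderm, mesothelium and smooth muscle markers summed to 2723 to 4588 CPM in WT and to 2096, 5985 and 6696 CPM under the DKO label. The collagen genes Col1a1 and Col3a1 held most of that sum in each library but library 1 labelled DKO, while Hand1 ran in the opposite order at 237, 114 and 59.7 CPM (DKO label) against 116 to 130 CPM in WT, as did Vim at 424, 363 and 258 CPM against 276 to 342 CPM. The 8 endothelial markers came to 430 to 526 CPM in WT and to 560, 552 and 369 CPM (DKO label). In library 3 labelled DKO, 3 of the 8 lay above every WT library, among them Pecam1 at 57.3 CPM against 30.6 to 39.9. Another 3 lay below, among them Tek at 38.4 CPM against 102 to 120. The 6 decidual markers came to 25.4 to 28.8 CPM in WT and to 34, 37.3 and 93.2 CPM (DKO label). Hand2 held most of the WT sums, at 19.9 to 20.5 CPM, and stood at 22.5 CPM in library 3 labelled DKO. Prl8a2, Wnt4 and Des stood there at 33.7, 18.5 and 16.5 CPM. The part of these differences in the values of the stress response genes was not tested. In bulk tissue, fewer cells of a type and less RNA per cell cannot be told apart.

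Further genes of the pathway were read from the same fit. Of 43 tested genes of ER folding, translocation and quality control, 26 were positive and 17 negative (median 0.02). At an unadjusted p under 0.05 there were 3 higher and 3 lower, against shares of 5.55% and 3.54% over the whole set tested. By the adjusted threshold edgeR called 0 and DESeq2 1, a tool that called 1.92% of genes with an adjusted p. Limma-voom called 11, in a fit that called 19% of all genes. The 3 with the lowest p were Sil1, Mesd and Mogs. Sil1, a second nucleotide exchange factor of BiP, had 13.3, 13.6 and 12.9 CPM (WT) against 16.6, 24.6 and 31.5 CPM (DKO label), all above WT (log2 fold change 0.87, SE 0.23). Its adjusted p was 0.368 by edgeR and 0.0473 by DESeq2, the 1 call of that tool in this list. Hyou1, described above, shares this role and lay on the other side of WT. Mesd, a chaperone of LRP receptors, stood at -0.41 (SE 0.11) and Mogs, which trims the first glucose from N-glycans, at -0.42 (SE 0.14), and edgeR's adjusted p was 0.369 and 0.449.

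Of 22 further degradation genes, 14 were positive (median 0.07) and 1 had an unadjusted p under 0.05, against 9.09% of all genes. By the adjusted threshold edgeR and DESeq2 called 0 and limma-voom 2, where limma-voom called 19% of all genes. Edem3, a relative of Edem1, had 125, 133 and 117 CPM (WT) against 109, 99.0 and 76.1 CPM (DKO label) (log2 fold change -0.40, SE 0.15, adjusted p 0.511 by edgeR). Ufd1, a cofactor of the p97 segregase, stood at 0.17 (SE 0.11) and Selenos, which recruits p97 to the ER, at -0.13 (SE 0.08). Of 19 further sensors and regulators, 10 were positive (median 0.02) and 1 had an unadjusted p under 0.05, against 9.09% of all genes. By the adjusted threshold edgeR and DESeq2 called 0 and limma-voom 6, all higher. Over all 14002 genes limma-voom called 1395 higher and 1266 lower. The transcription factor genes Cebpb and Atf3 lay highest in library 3 labelled DKO, Cebpb with 30.6, 29.9 and 35.5 CPM (WT) against 32.4, 54.3 and 60.5 CPM (DKO label) and Atf3 with 10.3, 8.50 and 9.04 CPM (WT) against 9.33, 14.3 and 27.2 CPM (DKO label). Library 1 labelled DKO lay within the WT range for both. Tmbim6 (BI-1), an inhibitor of IRE1, stood at 0.15 (SE 0.10).

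Of 37 further ATF4 targets tested, 18 were positive and 19 negative (median -0.02). The unadjusted p was under 0.05 for 3, each of them higher, where 5.55% of all genes were higher. By the adjusted threshold edgeR called 0, DESeq2 1 (1.92% of genes with an adjusted p) and limma-voom 11 (19% of all genes). Ddit4 (REDD1), an inhibitor of mTORC1 that also answers to hypoxia and glucocorticoids, had 1.78, 2.28 and 1.54 CPM (WT) against 5.07, 14.8 and 11.9 CPM (DKO label), all above WT. Its log2 fold change of 2.51 (SE 0.43) had an adjusted p of 0.183 by edgeR and 4.56e-06 by DESeq2, whose call it was. Eif4ebp1, a translation repressor, stood at 0.31 (SE 0.09, adjusted p 0.428 by edgeR) with groups that did not overlap. Gdf15, a stress hormone, was scarce, with 1.30, 0.875 and 0.596 CPM (WT) against 1.09, 3.06 and 7.06 CPM (DKO label). Its library 1 labelled DKO lay within the WT range, and library 3 was the highest (log2 fold change 2.01, SE 0.69, adjusted p 0.488 by edgeR).

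The libraries labelled DKO differed in this list, though the difference between them was not tested. Library 1 lay above every WT library in 23 of 37 genes, where 34.1% of all genes did, and below in 8 (33.7% of all genes). Library 2 lay above in 11 (34.7% of all genes) and below in 18 (33.9% of all genes). Library 3 lay below every WT library in 21 of 37, where 40.5% of all genes did, and above in 15 (41.6% of all genes). The amino acid transporter genes Slc7a1 and Slc1a5, named after their values were seen, had 58.2, 19.7 and 12.9 CPM and 25.1, 11.2 and 8.83 CPM (DKO label), against 34.4 to 44.4 CPM and 18.5 to 26.3 CPM in WT. In the fit of all libraries they stood at -0.35 (SE 0.53) and -0.61 (SE 0.40).

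Of 16 cytosolic heat shock genes, which serve a separate stress response, 8 were positive (median -0.04). The unadjusted p was under 0.05 for 2, against 9.09% of all genes. By the adjusted threshold edgeR and DESeq2 called 0 and limma-voom 2, where limma-voom called 19% of all genes. The small chaperone gene Hspb1 had 24.6, 22.3 and 25.5 CPM (WT) against 36.9, 29.9 and 65.6 CPM (DKO label), all above WT (log2 fold change 0.87, SE 0.29, adjusted p 0.480 by edgeR). Bag3, its partner, stood at 0.36 (SE 0.13), also without overlap, and Hsph1, an HSP110 of the cytosol and relative of Hyou1, at -0.47 (SE 0.20).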

How the data were processed

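The 6 yolk sac RNA samples were read single-end, per the labels' protocols. What the authors deposited is a table of raw read counts by gene symbol, and these entered the tests without change. Submitters' processing notes list mm10, SAMtools and DESeq2, without versions or roles. Per the file headers, each column was counted from a BAM file named as a subset. For the aligner, counter, annotation and strand, nothing is given in the sources used here.

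WT and DKO-labelled libraries were tested by edgeR 4.0.16 (R 4.3.3, quasi-likelihood) with TMM scaling, filterByExpr, robust shrinkage and no covariate. Benjamini-Hochberg adjustment covered all 14002 genes tested, with a threshold of 0.05. The SE of a log2 fold change was derived from its F statistic. Log2 differences of single libraries used a prior count of 2. Alternatives used DESeq2 1.42.0, limma 3.58.1, other scaling and filters, a replicate block and each library left out.

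The genes, lists and tests were chosen with earlier results of these data known. Among the 33 genes, the values of every library are given for those with an unadjusted p under 0.05 or without overlap and for Hspa5, Xbp1, Atf4, Ddit3, Atf6, Ern1 and Eif2ak3, by rule. From each wider list the 3 genes of lowest p are named, and not all with every library's value. Other genes given with library values were chosen after these were seen. In the wider lists 6 symbols were matched through RefSeq synonyms.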

Additional observations from a re-analysis of the deposited data

How the results depend on the processing

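Of 448 refits of single stress response genes, 420 kept the direction and the side of the threshold, 7 passed it and 21 turned sign. No paired samples are known: same-numbered libraries deviated in opposite ways (correlations -0.37, -0.28 and -0.19), no WT library correlating best with its own number. With the replicate block edgeR called 1 gene of all tested, against 5, and 0 stress response genes, of which 0 had an unadjusted p under 0.05, against 3.

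Calls over all genes were 296 by DESeq2, 2661 by limma-voom with quality weights, 8 without a filter and 0 to 634 with a library left out. Stress response genes called were 6 by limma-voom, which called 19% of all genes, and 0 to 1 with a library left out. Those with an unadjusted p under 0.05 were 13 by limma-voom, where 2731 of all 14002 genes were higher and 2635 lower at that p. With a library left out they were 0 to 9. Without library 1 labelled DKO, 2648 of all 14335 genes were higher and 2122 lower at that p. Wider pathway genes called were 2 of 140 by DESeq2 (1.92% of genes with an adjusted p), 32 of 137 by limma-voom (19% of all genes) and 0 to 9 with a library left out. The 9, and the 1 stress response gene, were called without library 1 labelled DKO. That fit called 3.02% of all genes as higher and 1.4% as lower. The limma-voom weights were 0.223 and 0.198 for libraries 1 and 3 labelled DKO and 3.7 for library 2. The 9 genes without overlap became 19 without library 1 labelled DKO, where 27.6% of all genes lay wholly above and 26.4% wholly below WT, and 9 to 19 over all libraries left out, a count that leaving out a library can only keep or raise. The cause of these differences was not tested.

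Signs turned as follows. Syvn1, at -0.00 with all libraries, stood at 0.10 in limma-voom, at 0.07 without WT library 1 and without library 1 labelled DKO, and at 0.00 with a minimum of 1 CPM in 3 libraries, and Edem1 at 0.00 with library totals only. In limma-voom Dnajc3 stood at 0.01, Atf6 at -0.10 and Ern1 at -0.03. Edem1 stood at -0.01 without WT library 2, -0.06 without WT library 3 and -0.07 without library 2 labelled DKO. Without WT library 3, Atf6 stood at -0.02, Xbp1 at -0.04 and Ppp1r15a at 0.02. Atf6 stood at -0.05 without library 1 labelled DKO and Xbp1 at -0.13 without library 2. Without library 3 labelled DKO, Dnajb9 stood at -0.03, Ern1 at -0.11, Ddit3 at -0.03, Asns at 0.22 and Ppp1r15a at 0.10.

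With each library left out in turn, Syvn1 ran from -0.07 to 0.07, the highest value was 0.48 for Dnajb9, 0.09 for Edem1, 0.19 for Ern1, 0.13 for Xbp1 and 0.31 for Ddit3, and the lowest for Asns was -0.67. Low counts limit Derl3, Chac1 and Ddit3.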
